A study of Mus musculus with 6 samples.

Results

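The genes described here are 10 genes of the transforming growth factor beta (TGF-beta), bone morphogenetic protein (BMP) and activin signalling families, chosen by name among 24489 gene entries of a mouse liver transcriptome. They comprise 6 ligand genes (Tgfb1, Tgfb2, Bmp6, Inhba, Inhbc and Inhbe), the secreted activin antagonist Fst, the inhibitory Smads Smad6 and Smad7, and the BMP target gene Id1. Each symbol matched 1 entry, and all 10 passed the filter on low counts. Polyadenylated RNA came from 1 liver lobe of untreated pups at postnatal day 10, on a mixed C3H/C57bl6J background. A group of 3 libraries was homozygous for the Nodder (Ndr) allele of Jag1 (Jag1Ndr/Ndr), and the other 3 were Jag1+/+. The Jag1 product activates Notch receptors on neighbouring cells. Ndr is a germline missense allele, and homozygous mice are used to study Alagille syndrome, a human disorder with too few bile ducts. The comparison asked how these transcripts differed between the genotypes.

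Ligands of this superfamily are dimers that bring together type I and type II serine/threonine kinase receptors on the receiving cell. TGF-beta and activin receptors phosphorylate Smad2 and Smad3, and BMP receptors phosphorylate Smad1, Smad5 and Smad9, and both sets enter the nucleus with Smad4. In liver, TGF-beta drives matrix production by stellate cells, endothelial BMP6 raises hepcidin in hepatocytes, and the activin subunits encoded by Inhbc and Inhbe are made mainly by hepatocytes. Smad6 and Smad7 are induced by the signal and restrain it.

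Read totals ranged from 12992592 to 59653111 per library, so that a count of 0 allowed at most 0.0503 CPM (counts per 1000000 reads of a library) in the deepest library and 0.231 CPM in the least deep. These limits, from 3 reads, cover counting error only. Albumin, the defining transcript of hepatocytes, took between 10.3% and 17.3% of reads. Reads of Xist and of Y-linked genes marked Jag1+/+ replicate 1 and Jag1Ndr/Ndr replicates 2 and 3 as female and the other 3 libraries as male. The Jag1Ndr/Ndr libraries stood farther from each other than the Jag1+/+ libraries did, with Spearman correlations across genes from 0.946 to 0.971 against 0.982 to 0.988. Jag1Ndr/Ndr replicates 1 and 2 stood apart on the second principal component (22.1% of variance), at 46.7 and -43.6. The labels do not say that each library came from a separate pup. The p-values thus set the genotype difference against the spread between these libraries, whatever the source of that spread. Jag1 itself had a log2 fold change of -0.28, which did not pass (edgeR adjusted p = 0.638), and a missense allele need not alter it.

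Inhbc, which passed the test given below, and its neighbour Inhbe, which did not, lie in the same orientation on chromosome 10. The 250 bases before each start are shown. They are from RefSeq on GRCm38.p6, minus strand, at chr10:127370549-127370798 for Inhbc and chr10:127351849-127352098 for Inhbe. Capitals mark the Smad box CAGAC on either strand.
Inhbc: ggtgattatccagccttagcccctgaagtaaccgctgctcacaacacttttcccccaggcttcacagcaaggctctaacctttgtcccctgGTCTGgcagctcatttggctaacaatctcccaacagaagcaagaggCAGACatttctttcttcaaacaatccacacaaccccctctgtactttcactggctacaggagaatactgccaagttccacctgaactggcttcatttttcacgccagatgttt
Inhbe: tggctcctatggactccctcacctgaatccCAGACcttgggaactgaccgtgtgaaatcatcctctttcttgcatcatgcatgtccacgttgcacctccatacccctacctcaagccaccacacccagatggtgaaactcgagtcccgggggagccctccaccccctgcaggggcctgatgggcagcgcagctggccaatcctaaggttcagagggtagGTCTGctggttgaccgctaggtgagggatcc
Each window held 2 Smad boxes, and the G+C content was 48.8% for Inhbc and 58.8% for Inhbe. Of 32851 such windows in the table, 42.2% held at least 1 Smad box, so holding at least 1 does not set these genes apart. The share of windows with 2 was not counted. The palindromic Smad-binding element GTCTAGAC (0.167% of windows) and the GC-rich Smad site GGCGCC (9.59%) matched in none of the 7 members with an entry on either strand. None of these 3 motifs contains another. Fst, Smad7 and Id1 had no entry.

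Per length of transcript, Inhbc was the most abundant of the 10 in Jag1+/+ livers, at 116 ± 4.15 RPKM (reads per kilobase of transcript and sequencing depth, scaled by the TMM method, mean ± SD, n = 3). Inhbe followed at 32.0 ± 6.48 RPKM, Tgfb1 at 20.8 ± 1.22, Id1 at 10.1 ± 3.66 and Inhba at 3.92 ± 1.75 RPKM. Smad6 (3.87 ± 0.574 RPKM), Smad7 (3.11 ± 0.288) and Fst (1.94 ± 0.806) came next, and Tgfb2 and Bmp6 lay lowest, at 0.435 ± 0.248 and 0.367 ± 0.0906 RPKM. The 3-library ranges of neighbours in this order overlapped for Inhba with Smad6, Smad6 with Smad7, and Tgfb2 with Bmp6, and for no other neighbours. In Jag1Ndr/Ndr livers the top of the order closed up: Inhbc stood at 36.0 ± 6.29, Tgfb1 at 27.2 ± 6.44 and Inhbe at 14.9 ± 20.2 RPKM, each range overlapping the next. Fst moved from the eighth to the fifth place, at 6.46 ± 2.34 RPKM. Its range there (3.90 to 8.49 RPKM) overlapped those of Smad6 (4.22 to 5.24) and Inhba (0.655 to 6.36), which came next.

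Between the genotypes, Inhbc fell and Fst rose, and the other 8 genes did not pass the test (quasi-likelihood test of edgeR, p-values adjusted by Benjamini-Hochberg over 13819 genes, threshold 0.05). These 2 of 10 members stand beside 7.63% of all genes tested that passed, with 4.73% up and 2.90% down. The libraries of the genotypes lay apart for the same 2 of 10 members and for 29.0% of all genes, 14.8% with the Jag1Ndr/Ndr libraries higher and 14.2% with them lower. At an unadjusted p under 0.05 lay 2 of the 10 and 22.5% of all genes. The median log2 fold change of the members was 0.13 and that of all genes 0.0041. Log2 fold changes are Jag1Ndr/Ndr over Jag1+/+ with their standard error (SE), and the CPM below are scaled by TMM.

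**Figure D1:**
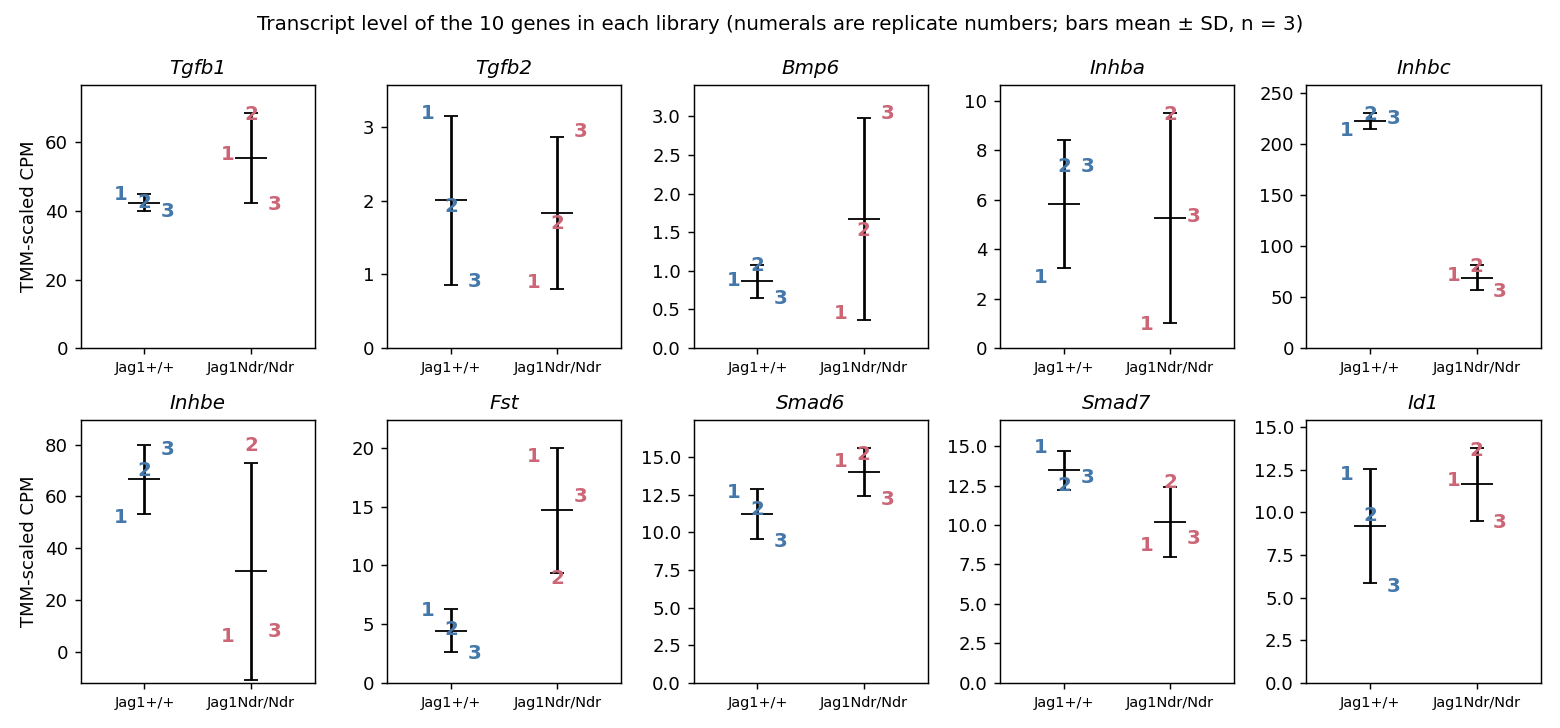
TMM-scaled CPM (vertical axes, each with its own scale) of the 10 genes in the 6 libraries; numerals give the replicate number, and black bars the mean ± SD of 3 libraries per genotype. The genotypes lie apart for Inhbc and Fst only, and Jag1Ndr/Ndr replicate 2 stands at 79.6 CPM of Inhbe, beside 5.85 and 7.73 CPM in the other Jag1Ndr/Ndr libraries.

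Inhbc encodes the activin beta C subunit, a secreted protein of hepatocytes (chromosome 10, positions 127356322 to 127370548). It measured 213, 229 and 225 CPM in Jag1+/+ replicates 1, 2 and 3, and 71.2, 79.8 and 55.9 CPM in Jag1Ndr/Ndr replicates 1, 2 and 3. Every Jag1Ndr/Ndr library lay far under every Jag1+/+ library. The fold change was 3.22-fold lower in Jag1Ndr/Ndr livers (log2 -1.69 ± 0.18 SE, edgeR adjusted p = 0.00300). This gene passed under each alternative setting run, with log2 fold changes from -1.80 to -1.56 when 1 library was left out. On GRCm38, 268 exonic bases of Inhbc (14.4%) are shared with the antisense gene Gm47200, whose reads cannot be told apart without strand.

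Of 10 hepatocyte markers, 2 fell (Cyp2e1 and Ttr), beside 2.90% of all genes, and 8 did not pass, 3 of them with positive log2 fold changes. Their summed level, most of it albumin (edgeR adjusted p = 0.214), was 217870 to 224400 CPM in Jag1+/+ and 102610 to 183430 CPM in Jag1Ndr/Ndr livers. None was at 0 in all libraries. In bulk RNA, fewer cells of a type and less RNA per cell cannot be told apart. Jag1Ndr/Ndr replicate 1 had the highest marker sum of its group (183430 CPM), and its Inhbc level lay between those of the other 2. The part of hepatocyte content in the fall of Inhbc was not tested.

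Inhbe encodes the beta E subunit and is known to respond to nutrient and stress signals in hepatocytes (chromosome 10, positions 127349402 to 127351848). Its levels were 51.8, 70.0 and 78.1 CPM in the Jag1+/+ libraries and 5.85, 79.6 and 7.73 CPM in Jag1Ndr/Ndr replicates 1, 2 and 3. Replicates 1 and 3 lay far below every Jag1+/+ library, while replicate 2 was the highest of all 6. The log2 fold change of -1.07 ± 0.84 SE therefore had a 95% interval from -2.99 to 0.85 and did not pass (edgeR adjusted p = 0.523). Without Jag1Ndr/Ndr replicate 2 it was -3.28 and passed (edgeR adjusted p = 0.000902), and without each of the others it stayed outside the threshold. The value also moved to -1.81 with sex as a covariate, to -1.83 by limma on deposited RPKM at pseudocount 0.1 and to -1.90 by limma at pseudocount 1 on RPKM divided, where the deposited ones are multiplied, by the TMM factor, without passing (adjusted p = 0.451, 0.274 and 0.200). Replicate 2 was the deepest library, with 59653111 reads, and had the lowest hepatocyte marker sum (102610 CPM). Replicates 2 and 3, at 79.6 and 7.73 CPM, were both female. What part depth, hepatocyte content or sex had in the spread of Inhbe was not tested.

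The pair of neighbouring genes thus did not move in step in every library. Inhbc RPKM exceeded Inhbe RPKM by 4.47, 3.54 and 3.13 times in Jag1+/+ replicates 1, 2 and 3. In Jag1Ndr/Ndr replicates 1, 2 and 3 the ratio was 13.2, 1.09 and 7.85. The ratio in the Jag1Ndr/Ndr group lay both above and below the Jag1+/+ range, while Inhbc alone stayed low in all 3 libraries.

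**Figure D2:**
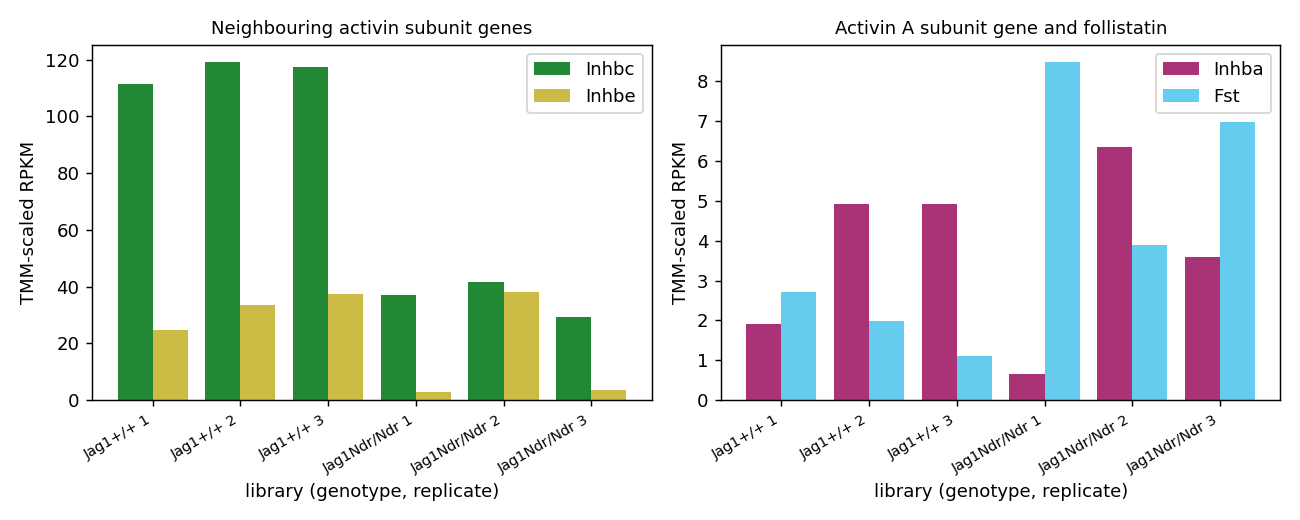
TMM-scaled RPKM (vertical axes, from 0) in each library for Inhbc and Inhbe (left) and for Inhba and Fst (right). Inhbc is low in all 3 Jag1Ndr/Ndr libraries, Inhbe in replicates 1 and 3 only, and Fst exceeds Inhba in Jag1+/+ replicate 1 and in Jag1Ndr/Ndr replicates 1 and 3.

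Inhba encodes the beta A subunit of activin A, a ligand that restrains hepatocyte growth. It measured 2.84, 7.34 and 7.34 CPM in the Jag1+/+ libraries and 0.975, 9.47 and 5.33 CPM in Jag1Ndr/Ndr replicates 1, 2 and 3. The groups overlapped over most of their range, and the lowest library held 11 reads. The log2 fold change of -0.11 ± 0.64 SE did not pass (edgeR adjusted p = 0.951), and its 95% interval of -1.57 to 1.36 includes changes over 2-fold in either direction. Its sign turned with library totals alone and without some single libraries, and it was -0.85 without Jag1Ndr/Ndr replicate 2. In Jag1Ndr/Ndr replicate 2, Inhba and Inhbe were both at their highest over the 6 libraries.

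Fst encodes follistatin, which binds activins with high affinity and keeps them from their receptors (chromosome 13, positions 114452262 to 114458989). Its levels were 6.20, 4.54 and 2.53 CPM in Jag1+/+ replicates 1, 2 and 3, and 19.3, 8.88 and 15.9 CPM in Jag1Ndr/Ndr replicates 1, 2 and 3. All Jag1Ndr/Ndr libraries lay above all Jag1+/+ libraries, replicate 2 being nearest to them. Fst rose 3.34-fold (log2 1.74 ± 0.39 SE, edgeR adjusted p = 0.0333). The call was lost with sex as a covariate (adjusted p = 0.0720), by limma on RPKM divided by the TMM factor (0.0608) and when any library other than Jag1Ndr/Ndr replicate 2 was left out. The edgeR adjusted p was then 0.0582, 0.113 and 0.102 without Jag1+/+ replicates 1, 2 and 3, and 0.0691 and 0.0768 without Jag1Ndr/Ndr replicates 1 and 3. Its direction held in all of these, with log2 fold changes from 1.45 to 2.04 when 1 library was left out. On GRCm38, 115 exonic bases of Fst (2.51%) are shared with the antisense gene Gm47040.

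Summed levels of erythroid, macrophage, neutrophil and megakaryocyte markers were higher in every Jag1Ndr/Ndr library than in any Jag1+/+ library, as Fst was, though not every marker passed. For 7 erythroid markers the sum was 39.3 to 120 CPM in Jag1+/+ and 144 to 390 CPM in Jag1Ndr/Ndr livers, with 4 of 7 rising and Hba-a1 at 0 in all libraries. Macrophage, neutrophil and megakaryocyte markers are given with the genes below. Lymphocyte markers (54.6 to 72.3 and 25.9 to 54.8 CPM, 1 of 10 falling) and cholangiocyte markers (102 to 143 and 71.5 to 177 CPM, 2 of 9 rising) overlapped between the genotypes. In Jag1Ndr/Ndr replicates 1, 2 and 3 the erythroid sum was 358, 390 and 144 CPM, and the neutrophil sum 1067, 2357 and 1536 CPM. Both of these sums were highest in replicate 2, where Fst was lowest in its group. The macrophage and megakaryocyte sums were highest in replicate 1, as Fst was. The part of any of these cells in the rise of Fst was not tested.

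Set against each other per length, Fst was 1.43, 0.405 and 0.226 times Inhba in Jag1+/+ replicates 1, 2 and 3. The ratio was 12.97, 0.614 and 1.95 in Jag1Ndr/Ndr replicates 1, 2 and 3. Replicate 2 lay within the Jag1+/+ range, and the groups overlapped. The ratio in replicate 1 rests on the 11 reads of Inhba.

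Tgfb1, the main TGF-beta isoform of macrophages and platelets, measured 44.8, 42.4 and 39.9 CPM in Jag1+/+ replicates 1, 2 and 3. In Jag1Ndr/Ndr replicates 1, 2 and 3 it stood at 56.4, 68.1 and 41.9 CPM. Replicates 1 and 2 lay above every Jag1+/+ library and replicate 3 within their range, and the log2 fold change of 0.39 ± 0.19 SE (95% interval -0.04 to 0.82) did not pass (edgeR adjusted p = 0.274). The summed level of 12 macrophage markers was 904 to 1582 CPM in Jag1+/+ and 1820 to 3045 CPM in Jag1Ndr/Ndr livers, with 2 of the 12 higher by the test. That of 10 megakaryocyte and platelet markers was 37.9 to 87.3 and 99.9 to 177 CPM, with 1 of 10 higher, and no marker of either list was at 0 in all libraries. In Jag1Ndr/Ndr replicates 1, 2 and 3 the macrophage sum was 3045, 1848 and 1820 CPM. The megakaryocyte and platelet sum was 177, 167 and 99.9 CPM. Both sums and Tgfb1 were lowest in replicate 3, but both sums were highest in replicate 1 and Tgfb1 in replicate 2. The part of these cells in the Tgfb1 level was not tested.

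Tgfb2, an isoform of mesenchyme and biliary epithelium, was a low transcript, with 3.19, 1.92 and 0.904 CPM in Jag1+/+ and 0.886, 1.68 and 2.93 CPM in Jag1Ndr/Ndr libraries. The groups spanned almost the same range. The log2 fold change of -0.07 ± 0.54 SE (95% interval -1.29 to 1.16) did not pass (edgeR adjusted p = 0.962), and its sign turned with the scaling. Bmp6, the endothelial ligand that sets hepcidin, measured 0.869, 1.07 and 0.646 CPM in Jag1+/+ and 0.443, 1.52 and 3.04 CPM in Jag1Ndr/Ndr replicates 1, 2 and 3. Jag1Ndr/Ndr held both the lowest and the highest library, the lowest with 5 reads, and the log2 fold change of 0.99 ± 0.57 SE (95% interval -0.31 to 2.29) did not pass (edgeR adjusted p = 0.357). Without Jag1Ndr/Ndr replicate 3 it was 0.34, and with sex as a covariate 0.40. At this depth neither a fall nor a 4-fold rise of Bmp6 lies outside its interval. Reads over the 224 exonic bases that Bmp6 shares with Txndc5, and the 124 that Tgfb2 shares with Gm29491, both on the opposite strand, cannot be told apart.

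Smad6, the inhibitory Smad that acts mainly on BMP receptors, measured 12.7, 11.5 and 9.40 CPM in Jag1+/+ and 14.7, 15.2 and 12.2 CPM in Jag1Ndr/Ndr libraries. Its groups overlapped only between Jag1+/+ replicate 1 and Jag1Ndr/Ndr replicate 3 (log2 fold change 0.33 ± 0.18 SE, edgeR adjusted p = 0.341). Smad7, which acts on TGF-beta, activin and BMP receptors alike, lay the other way, with 14.9, 12.5 and 13.0 CPM in Jag1+/+ and 8.69, 12.7 and 9.12 CPM in Jag1Ndr/Ndr libraries. Here too a single library, Jag1Ndr/Ndr replicate 2, reached into the range of Jag1+/+ (log2 fold change -0.39 ± 0.20 SE, 95% interval -0.85 to 0.07, edgeR adjusted p = 0.297). The difference between the pair was not tested.

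Id1, a helix-loop-helix inhibitor and direct target of BMP-activated Smads, measured 12.2, 9.80 and 5.63 CPM in Jag1+/+ and 11.9, 13.7 and 9.39 CPM in Jag1Ndr/Ndr libraries. The groups overlapped, and the log2 fold change of 0.35 ± 0.29 SE (95% interval -0.32 to 1.02) did not pass (edgeR adjusted p = 0.555). Endothelial cells of the sinusoids carry much of the Bmp6, Smad6 and Id1 of liver. The summed level of 12 of their markers was 883 to 996 CPM in Jag1+/+ and 833 to 886 CPM in Jag1Ndr/Ndr livers, with 1 of 12 lower and none at 0 in all libraries. The part of these cells in the 3 genes was not tested.

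**Figure D3:**
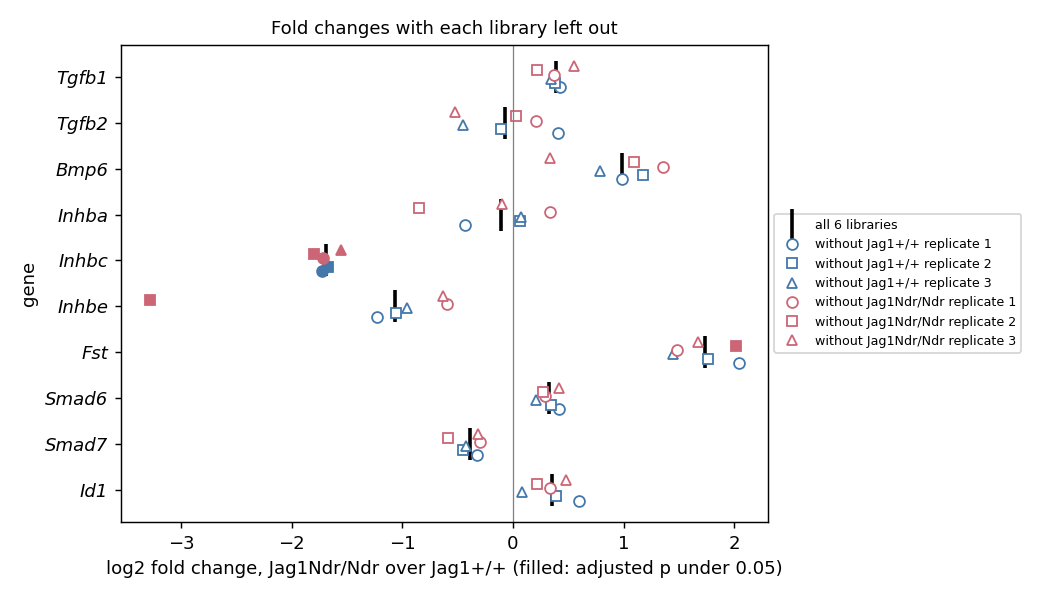
Log2 fold change (horizontal axis, Jag1Ndr/Ndr over Jag1+/+) of each of the 10 genes with all 6 libraries (black bar) and with 1 library left out (coloured symbols, filled where the adjusted p was under 0.05). Inhbc is filled throughout, Fst only without Jag1Ndr/Ndr replicate 2, and Inhbe moves from -1.07 to -3.28 without that library.

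Other genes of the pathway, 99 on lists arranged by role, showed few calls. Of the 83 that passed the filter, 4 rose and 1 fell, or 6.02%, near the 7.63% of all genes, and their median log2 fold change was 0.07. The 4 that rose were 3 genes known as targets of TGF-beta and 1 corepressor.

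Among 14 further ligands tested, 0 passed by edgeR, with 6 at an unadjusted p under 0.05 (22.5% of all genes lay there; 2 passed by DESeq2 and 0 by limma on deposited RPKM), and the median was -0.07. The most abundant were Bmp1, which despite its name is a procollagen protease, and Inhbb, the activin beta B subunit and a further hepcidin regulator. Inhbb had 89.4, 83.3 and 88.8 CPM in Jag1+/+ and 59.4, 79.7 and 40.3 CPM in Jag1Ndr/Ndr libraries, which did not overlap, with a log2 fold change of -0.54 ± 0.23 SE (edgeR adjusted p = 0.218). Bmp1 stood at -0.37 ± 0.17 SE (adjusted p = 0.243). Named after their values were seen, Bmp5 stood at -0.75 ± 0.20 SE (edgeR adjusted p = 0.0562, 0.0129 by DESeq2, 0.0381 by edgeR without Jag1Ndr/Ndr replicate 2, and 0.0338 by limma on RPKM divided by the TMM factor). Of its exonic bases, 46.7% are shared with the antisense gene Gm26903. Gdf15, a stress-induced member of the superfamily, had 4.88, 12.5 and 2.45 CPM in Jag1Ndr/Ndr beside 1.62 to 2.47 CPM in Jag1+/+ libraries (log2 1.65 ± 0.54 SE, edgeR adjusted p = 0.107, 0.0154 by DESeq2, and 0.0322 by edgeR without Jag1Ndr/Ndr replicate 3). Without replicate 2 it was 0.75 (edgeR adjusted p = 0.280). Its highest library was Jag1Ndr/Ndr replicate 2, as for Inhba and Inhbe.

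Among 14 receptors and co-receptors 0 passed by edgeR, with 3 at an unadjusted p under 0.05 (1 passed by DESeq2 and 0 by limma on deposited RPKM), a share near the 22.5% of all genes. The most abundant, the endothelial TGF-beta co-receptor Eng and the BMP co-receptor hemojuvelin (entry Hfe2), had log2 fold changes of 0.28 ± 0.20 and 0.29 ± 0.18 SE (edgeR adjusted p = 0.488 and 0.415). Those 3 were the activin and BMP receptors Acvr2a, Acvr1b and Acvr1, named after their values were seen. Acvr2a, a type II receptor of activins, had 20.7, 26.7 and 28.3 CPM in Jag1+/+ and 9.57, 16.8 and 18.5 CPM in Jag1Ndr/Ndr libraries, without overlap. Its log2 fold change was -0.75 ± 0.25 SE, that of the activin type I receptor Acvr1b -0.73 ± 0.25, and that of Acvr1, a type I receptor for BMPs, -0.46 ± 0.16 SE. Their edgeR adjusted p-values lay between 0.118 and 0.122, and DESeq2 gave Acvr2a 0.0494. Acvr2a shares 446 exonic bases with Orc4 on the opposite strand.

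Of the 6 receptor-activated and common Smads, 0 were past the edgeR threshold, 0 at an unadjusted p under 0.05, and 0 by DESeq2 or by limma on deposited RPKM. Smad4, the shared partner, had a log2 fold change of 0.00 ± 0.15 SE (95% interval -0.35 to 0.35), and Smad5 of -0.12 ± 0.16 SE. The value farthest from 0 on this list was that of Smad9, named after it was seen, at 0.46 ± 0.31 SE (95% interval -0.25 to 1.16). In 9 secreted antagonists besides Fst, 0 passed by edgeR, with 4 at an unadjusted p under 0.05, beside 22.5% of all genes. DESeq2 passed 1, Nbl1, named after its values were seen, and limma on deposited RPKM 1 at pseudocount 1 and 0 at 0.1. Of the 14 listed, Cer1 was at 0 in all libraries. The most abundant of them were Twsg1, a BMP-binding protein, and Fstl1, a relative of follistatin. Their log2 fold changes were -0.20 ± 0.16 and 0.07 ± 0.21 SE (edgeR adjusted p = 0.544 and 0.899).

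Of 12 genes that store or activate latent TGF-beta, 1 fell by edgeR, beside 2.90% of all genes tested. DESeq2 passed 2 of them, adding Dcn (log2 0.52 ± 0.17 SE, edgeR adjusted p = 0.106), named after its values were seen, and limma on deposited RPKM passed 0. Ltbp4, which tethers latent TGF-beta to elastic fibres, went from 104 ± 21.8 to 59.4 ± 6.16 CPM (log2 -0.81 ± 0.19 SE, edgeR adjusted p = 0.0377). Its libraries were 128, 98.1 and 85.7 CPM in Jag1+/+ and 54.7, 57.1 and 66.3 CPM in Jag1Ndr/Ndr, without overlap. The call was lost without any 1 of the 6 libraries (edgeR adjusted p from 0.0547 to 0.124) and with library totals alone (0.132). It was also lost by limma on deposited RPKM at pseudocounts 1 and 0.1 (0.611 and 0.620) and on RPKM divided by the TMM factor (0.0675). The summed level of 12 stellate cell and fibroblast markers was 434 to 440.0 CPM in Jag1+/+ and 267 to 379 CPM in Jag1Ndr/Ndr livers, 1 of 12 being lower and none at 0 in all libraries. Reln, the marker that was lower by the test, was the most abundant of the 12, with group means of 197 (Jag1+/+) and 113 CPM (Jag1Ndr/Ndr). Log2 fold changes were positive for 6 of the 12 markers and negative for 6, so the list did not move as a whole. The part of these cells in the Ltbp4 level was not tested. Of 11 inhibitors that act in or on the receiving cell, 1 rose by edgeR, beside 4.73% of all genes tested. It was Tgif1, a corepressor of Smad2 and Smad3, which went from 16.5 ± 0.855 to 28.8 ± 3.12 CPM (log2 0.80 ± 0.15 SE, edgeR adjusted p = 0.0184). DESeq2 passed 2 of the 11, adding Tmprss6 (log2 -0.66 ± 0.23 SE, edgeR adjusted p = 0.123), named after its values were seen, and limma on deposited RPKM 0. Leaving out Jag1+/+ replicate 1, 2 or 3 ended the call of Tgif1 (edgeR adjusted p = 0.0827, 0.105 and 0.0809), as did leaving out Jag1Ndr/Ndr replicate 3 (0.0514) or testing deposited RPKM by limma at pseudocount 1 (0.118).

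Of 6 BMP targets besides Id1, 0 passed by edgeR, by DESeq2 or by limma on deposited RPKM, and 0 had an unadjusted p under 0.05. Id2 and Id3, relatives of Id1, had log2 fold changes of 0.44 ± 0.27 and 0.23 ± 0.20 SE (edgeR adjusted p = 0.396 and 0.563). Of 11 genes that TGF-beta or activin is known to induce, 3 rose and 0 fell, beside 4.73% and 2.90% of all genes tested. Their median log2 fold change was 0.60, beside 0.0041 for all genes. Timp1 and Junb, described here, are also known to respond to inflammatory cytokines.

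Timp1, an inhibitor of matrix metalloproteinases, rose 20.4-fold (log2 4.35 ± 0.48 SE, edgeR adjusted p = 0.00314), from 1.27, 0.584 and 0.413 CPM in Jag1+/+ to 20.8, 13.7 and 9.01 CPM in Jag1Ndr/Ndr libraries. Junb, a component of the AP-1 factor, rose 3.41-fold (log2 1.77 ± 0.26 SE, edgeR adjusted p = 0.00866). Junb measured 14.5, 13.8 and 8.60 CPM in Jag1+/+ and 35.3, 55.1 and 34.9 CPM in Jag1Ndr/Ndr libraries, without overlap. Both genes kept their calls under each alternative setting run. Junb shares 173 exonic bases with Prdx2 on the opposite strand, from which reads cannot be told apart. The collagen and contractile genes of the same list (Col1a1, Col1a2, Col3a1, Acta2 and Tagln) did not pass, with adjusted p-values from 0.151 to 0.951. Neutrophil markers, 9 of which were tested, were higher beside these genes, with 5 rising and a summed level of 630 to 754 CPM in Jag1+/+ and 1067 to 2357 CPM in Jag1Ndr/Ndr livers. The macrophage sums given for Tgfb1 moved the same way. The part of these cells in the rise of these targets was not tested.

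**Figure D4:**
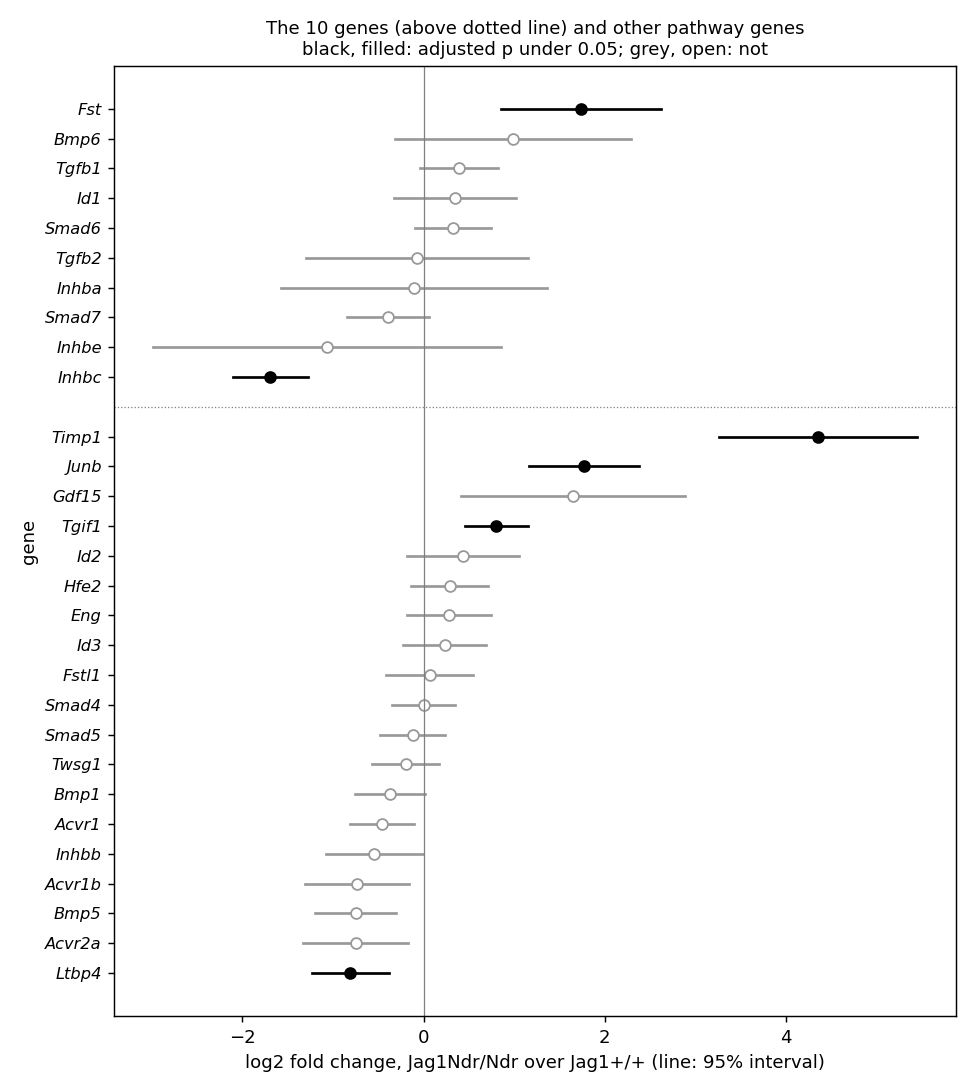
Log2 fold change (horizontal axis, Jag1Ndr/Ndr over Jag1+/+) with its 95% interval for the 10 genes (above the dotted line) and 19 of the other pathway genes named in the text (below it). Black filled points have an adjusted p under 0.05: Inhbc and Fst among the 10, and Timp1, Junb, Tgif1 and Ltbp4 among the others.

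As a measure of likeness, Pearson's r of log2 CPM over the 6 libraries was taken between each member that passed and every other gene tested. Inhbc was closest to 1700008J07Rik and to Slc17a2, a phosphate transporter family gene (r = 0.996 for both). Fst was closest to Pdzk1ip1 and to the tetraspanin Tspan8 (r = 0.996 and 0.995). The 6 libraries share a split by genotype, and 499 and 480 genes exceeded an r of 0.9 with Inhbc and with Fst, so that these are descriptions only.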

How the data were processed

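The deposited table holds 2 units for 6 libraries. Read counts per RefSeq gene entry were deposited by the authors without normalization. RPKM were deposited by the authors with a TMM factor per library, per the file headers, and set against the counts they are multiplied by it, where division is usual. The submitters' processing notes name STAR and mm10; versions and the read counter are not given in the sources used here, and the kit does not mark strand. After division by that factor, 98.0% of values with at least 50 reads lay within 5% of what the counts and 1 length per gene give.

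Counts of all 24489 entries were filtered with filterByExpr (13819 kept), scaled by TMM and tested with edgeR 4.0.16 (quasi-likelihood, R 4.3.3), in both directions, with Benjamini-Hochberg adjustment. SE was taken as the absolute log2 fold change divided by the square root of the F statistic. The 93 spike-in and eGFP entries (5 reads) were left out. RPKM printed are TMM-scaled CPM over the length recovered from the deposited values. Of 205 listed genes 203 had an entry. Positions and overlaps are of RefSeq GRCm38.p6 and GENCODE M21.

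Members, lists and tests were chosen with earlier results of these data known. Named genes are the members, up to 4 genes past the threshold per list or, with none, the 2 most abundant, the 2 genes most like each member that passed, and Jag1; exceptions are marked. A gene that the rule names but that was withheld is not reported here, though list counts include it. Alternatives were DESeq2 1.42.0, 2 other scalings, 2 other filters, limma 3.58.1 on the deposited RPKM (pseudocounts 1 and 0.1), a replicate block, sex as a covariate and leaving out each library, and, chosen after seeing the data, RPKM divided by their factor. The test was checked on simulated counts, with changes planted only in better-covered genes. It called 40 of 100 planted 2-fold changes, 92 of 100 planted 4-fold changes and 10 of 13619 unchanged genes. A 2-fold change would thus often be missed.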

Additional observations from a re-analysis of the deposited data

How the results depend on the processing

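Over all genes, 1054 passed in the edgeR test (653 higher, 401 lower), 1858 by DESeq2 (1123 and 735), 596 with sex as a covariate (366 and 230), and 489 and 544 by limma on the deposited RPKM with pseudocounts of 1 and 0.1 (388 and 427 higher, 101 and 117 lower). Leaving out 1 library gave 282 to 1211 (155 to 679 higher, 127 to 532 lower), the low values coming without Jag1+/+ libraries. With library totals alone 210 genes were lower. Higher genes were 62.0% of calls with TMM, 74.3% with library totals and 79.3% by limma at pseudocount 1. The last 2 moved the median gene by 0.13 and 0.21 on the log2 scale. The deposited RPKM are multiplied by their TMM factor. With RPKM divided by it, an alternative chosen after seeing the data, limma at pseudocount 1 passed 771 genes (420 higher, 351 lower), or 54.5% higher, with 1 member (0 higher) and 5 other pathway genes. Members past the threshold numbered 1 with sex as a covariate (0 higher) and 1 to 3 with 1 library left out (0 to 1 higher, 1 to 2 lower). Other pathway genes past it numbered 11 by DESeq2, 3 by limma with a pseudocount of 0.1, and 3 to 6 with 1 library left out. The causes were not tested.

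Signs turned only in genes that did not pass. Tgfb2 stood at 0.076 with library totals, at 0.074 and 0.14 in the deposited RPKM (pseudocounts 1 and 0.1), and at -0.53 to 0.40 with 1 library left out. Inhba stood at 0.12 with library totals and at -0.85 to 0.33 with 1 library left out. In the deposited RPKM (pseudocounts 1 and 0.1) Twsg1 stood at 0.039 and 0.033 and Smad5 at 0.13 and 0.13, Smad5 at 0.021 with library totals, and Jag1 at 0.012 with a pseudocount of 1. Fstl1 stood at -0.12 with sex as a covariate and at -0.10 to 0.24 with 1 library left out. Smad4 stood at -0.0025 by DESeq2, -0.0070 without a filter, -0.0074 with the replicate block, -0.060 with sex as a covariate, -0.025 with RPKM divided by the factor and -0.068 to 0.098 with 1 library left out.

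Same-numbered libraries of the genotypes correlated at 0.0856, 0.170 and 0.195 in their deviations from the genotype means, and each of the 6 libraries correlated best with its own number. Same-numbered libraries also share a number in their descriptions. The labels do not say what it marks, so pairing was not assumed. A replicate block gave 1430 genes, 2 members and 9 other pathway genes past the threshold. Under it Acvr2a and Bmp5 passed (edgeR adjusted p = 0.0306 and 0.0449), and Inhbe moved to -2.08 (0.122) without passing. Depth limits Bmp6, Tgfb2 and Inhba, with 5, 10 and 11 reads in Jag1Ndr/Ndr replicate 1.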
